A study of Mus musculus with 6 samples.

Results

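Lysosomal hydrolases and membrane proteins were followed in RNA-seq libraries of mouse quadriceps, a fast thigh muscle, after deletion of *Dnm1l*, the gene of the mitochondrial fission protein Drp1. The 35 genes were chosen by symbol, as enzymes that work in the lysosomal lumen, proteins of the lysosomal membrane and the genes that sort these enzymes to the organelle. All 35 were found among the 27179 genes with a row in the count files, and all 35 passed the filter on low counts that left 16483 genes to test. The smallest count of any of them in a library was 47, for *Arsb*.

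The study compared 3 miDrp1KO mice (libraries A, E and F) with 3 control mice (libraries B, C and D), all on normal chow diet. In miDrp1KO mice floxed *Dnm1l* is cut by HSA-MerCreMer, a tamoxifen-inducible Cre under the human *ACTA1* promoter, which is active in skeletal muscle fibres, so that other cells of the muscle keep the gene. Controls were labelled Control f/f, a name that lists floxed alleles and no Cre, and according to the methods received the same tamoxifen course (4 daily doses of 50 mg/kg, at 3 months of age). The mice were on a C57BL/6J background, and muscle was taken 3 weeks after deletion. The Cre transgene went with the miDrp1KO label alone, so that the transgene and the deletion cannot be told apart here.

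Lysosomes break down proteins, glycogen, lipids and glycosaminoglycans that arrive by endocytosis or by autophagy, the route by which a muscle fibre also disposes of damaged mitochondria. Their enzymes are made in the endoplasmic reticulum, tagged in the Golgi with mannose 6-phosphate and carried to the organelle by receptors, where an acid lumen activates them. Transcription factors of the TFEB family drive many of these genes together through an E-box-type DNA element, which makes the gene set a common readout of lysosome production. Loss of single enzymes or membrane proteins causes storage diseases, several of which affect muscle. Examples are Pompe disease through the enzyme acid alpha-glucosidase (*Gaa*) and Danon disease through the membrane protein *Lamp2*.

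Libraries held 13989588 to 62042255 counts (control C and control D), and between 1.48% and 24.4% of counts fell on ribosomal RNA genes (miDrp1KO E and miDrp1KO F). *Dnm1l* itself was at 156, 114 and 140 CPM (counts scaled to the size of the library, here by TMM) in control B, C and D and at 70.6, 81.3 and 66.2 CPM in miDrp1KO A, E and F, so that the groups did not overlap. Its log2 fold change was -0.91 (SE 0.18), with an adjusted p of 0.362 in edgeR's quasi-likelihood test and of 0.00534 in DESeq2. Over all genes edgeR called only 2 genes (0.0121% of those tested) at an adjusted p under 0.05, and DESeq2 called 55 of 7852 (0.700%).

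None of the 35 lysosomal genes was called by edgeR, and none of the 26 to which DESeq2 gave an adjusted p with its default filtering, which left out *Arsb* and *Sgsh* among others. *Gaa* alone was called with DESeq2's filtering tuned to 0.05 (2.34% of all genes with an adjusted p) and with DESeq2 run on all genes with a count (1.18%), both settings added after the data were seen. At an unadjusted edgeR p under 0.05, which 10.9% of all tested genes met, stood 4 of the 35: *Gaa* and *Psap* were lower in miDrp1KO muscle and *Ids* and *Arsb* higher. All 4 also had groups that did not overlap, which together with that p held for 5.30% of all tested genes in the lower and 3.74% in the higher direction. The count of 4 was 9 without miDrp1KO A, 2 without control B and 1 without control D or without miDrp1KO E. In limma voom, 4 of the 35 met the same unadjusted threshold, against 12.8% of tested genes, and none of the 35 passed after adjustment.

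In 7 of the 35 genes the groups did not overlap, 5 lower (*Gaa*, *Psap*, *Lamp1*, *Gnptab* and *Sgsh*) and 2 higher (*Ids* and *Arsb*) in miDrp1KO muscle, against 18.0% of all tested genes, 10.3% lower and 7.67% higher. For each of the 7 the two-sided exact permutation test gave p = 0.1, the smallest that 3 against 3 libraries allow. The count of genes without overlap was 13 without control C, 12 without miDrp1KO A and 11 without miDrp1KO E, where fewer libraries make a lack of overlap more frequent by construction.

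By sign, 23 of the 35 had a log2 fold change below 0, against 48.0% of all tested genes. The median over the 35 was -0.10 beside 0.02 over all genes tested, and the values ran from -0.82 (*Gaa*) to 0.68 (*Arsb*). With upper quartile scaling only 18 of the 35 were below 0, and their median was -0.0086 beside 0.11 over all genes tested. The 95% interval of the fold change included 0 for 31 of the 35, and for 32 of them it lay inside log2 -1 to 1, *Gaa*, *Npc1* and *Arsb* reaching beyond. Summed, the 35 genes stood at 2527, 2687 and 2640 CPM in control B, C and D and at 2435, 2114 and 2328 CPM in miDrp1KO A, E and F. Without *Lamp1*, *Psap* and *Gaa*, picked for this after their values were seen, the sums were 1547 to 1739 CPM in controls and 1503 to 1648 CPM in miDrp1KO muscle, and overlapped. The separation of the sums over all 35 depended on the scaling. As a share of all counts, without TMM, the 35 were at 0.212%, 0.264% and 0.255% in control B, C and D. In miDrp1KO A, E and F they were at 0.206%, 0.299% and 0.242%, which overlapped with the controls. MiDrp1KO E had the highest share and the lowest sum.

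**Figure D1:**
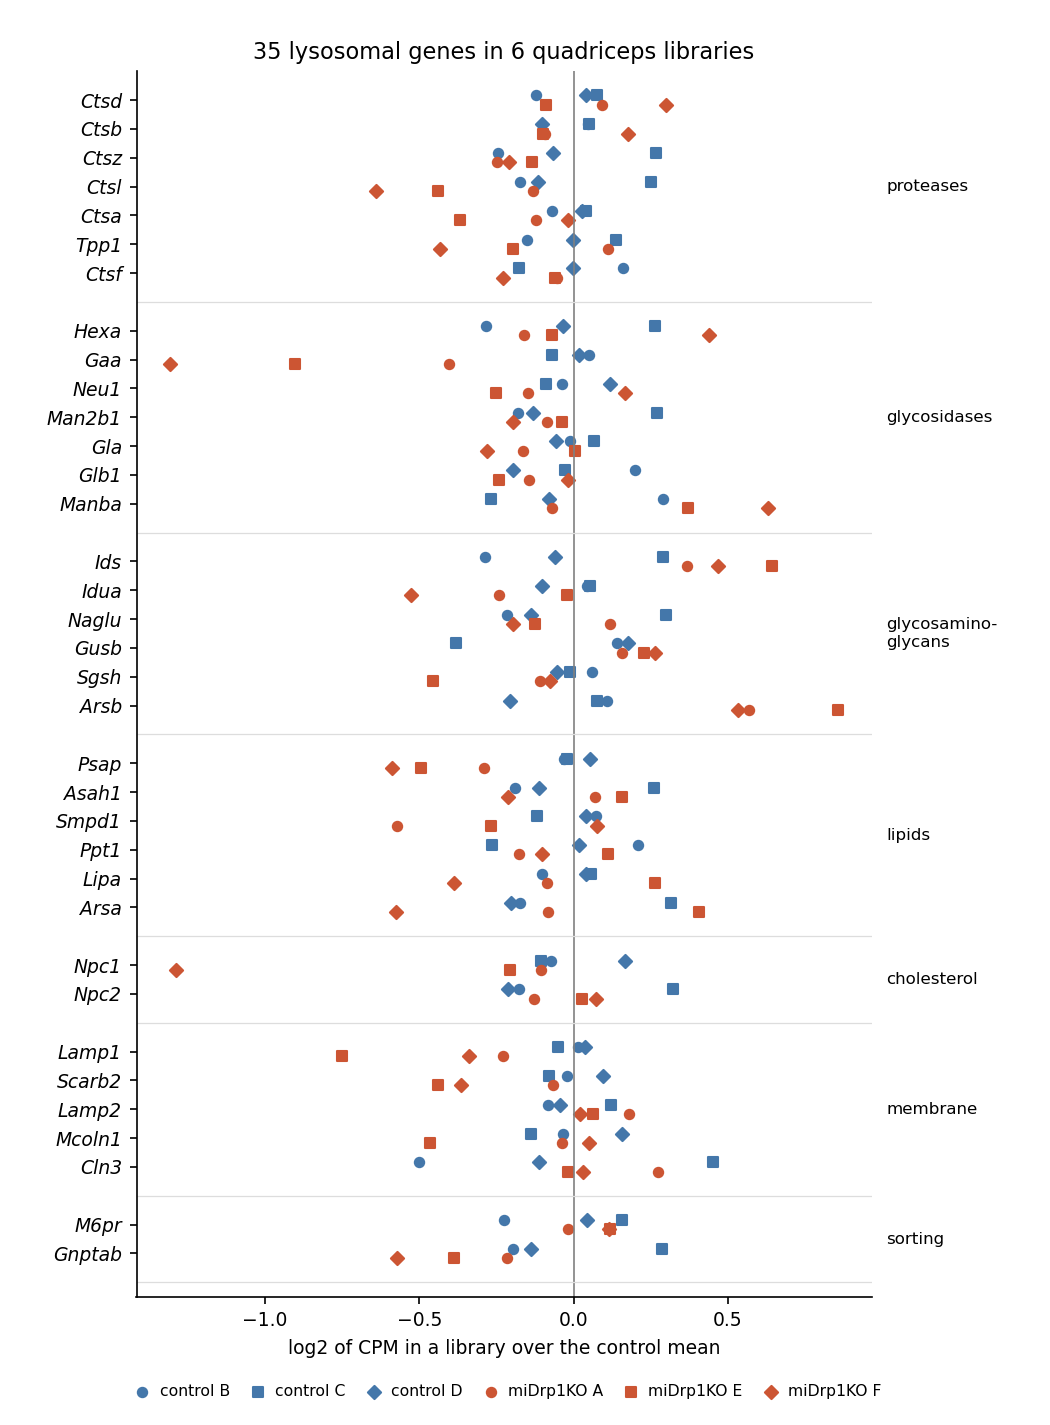
Each row is 1 of the 35 lysosomal genes, grouped by role, and each point is 1 library, placed on the horizontal axis by the log2 of its CPM over the control mean (blue, controls; red, miDrp1KO; the marker shape names the library). All 3 miDrp1KO points lie left of all 3 control points for *Gaa*, *Psap*, *Lamp1*, *Gnptab* and *Sgsh* and right of them for *Ids* and *Arsb*, and the groups mix in the other 28.

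The libraries of each group also differed among themselves. Control C, the shallowest library, held the highest control value for 20 of the 35 genes, and its summed macrophage markers were also the highest of all libraries (345 CPM, against 193 and 198 CPM in control B and D). Among miDrp1KO libraries, F held the lowest value for 16 genes, E for 10 and A for 9. Whether macrophage RNA accounted for the levels in control C was not tested.

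The promoter sequences are shown before the single genes, because they hold the E-box-type element that TFEB factors are known to bind. RefSeq promoter windows (GRCm38.p6, 250 bases before to 50 after each annotated start) were found for 31 of the 35 genes, with 34 windows in all. *M6pr*, *Asah1*, *Ctsb* and *Npc1* had no entry. The element was searched as TCACGTG on both strands, the 7-base core of the CLEAR element that TFEB binds. Forms nested around it were searched too: the E-box CACGTG, the palindrome TCACGTGA and that palindrome with a further fixed base on each side. The longest form was present in *Cln3* alone, 1 of the 31 genes (3.23%, against 0.37% of all genes and 0.676% of tested genes). TCACGTG was present in 11 of the 31 genes (35.5%), against 4.29% of 27025 genes with a promoter window and 6.4% of the 12281 tested genes with one.

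CACGTG was present in 13 of the 31 (41.9%, against 8.09% of all genes and 10.9% of tested genes), and TCACGTGA in 5 (16.1%, against 1.12% and 1.95%). A match of letters is a description of the window and not a measured binding site. All 34 windows were read in the direction of transcription.

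The promoters of *Gaa* and *Lamp1* are shown in full, with TCACGTG or its reverse complement CACGTGA in capitals. Both hold the element and had groups that did not overlap. The same held for *Sgsh*, of which only the copy with its flanks is shown further below. *Gaa* is at chr11:119267713-119268012 (plus strand) and *Lamp1* at chr8:13158911-13159210 (plus strand):
*Gaa*: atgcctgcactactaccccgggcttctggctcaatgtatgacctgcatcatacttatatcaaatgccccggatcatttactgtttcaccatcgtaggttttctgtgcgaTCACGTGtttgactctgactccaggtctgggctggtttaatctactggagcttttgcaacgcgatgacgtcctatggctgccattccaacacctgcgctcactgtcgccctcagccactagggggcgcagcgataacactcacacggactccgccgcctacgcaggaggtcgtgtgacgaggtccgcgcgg
*Lamp1*: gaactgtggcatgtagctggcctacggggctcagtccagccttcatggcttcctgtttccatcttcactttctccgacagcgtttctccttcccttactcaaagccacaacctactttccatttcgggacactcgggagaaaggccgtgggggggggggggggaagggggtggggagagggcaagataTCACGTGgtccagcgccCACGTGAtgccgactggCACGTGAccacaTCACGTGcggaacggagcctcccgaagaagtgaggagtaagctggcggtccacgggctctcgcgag

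The *Lamp1* window held 4 copies within 62 bases before the start, the most of the 31 genes, and the *Gaa* window 1 copy that began 141 bases before it. The first promoter of *Psap* (chr10:60277378-60277677, plus strand) and that of *Arsb* (chr13:93771429-93771728, plus strand), the gene with the highest fold change, held none of these letters and therefore carry no capitals:
*Psap*: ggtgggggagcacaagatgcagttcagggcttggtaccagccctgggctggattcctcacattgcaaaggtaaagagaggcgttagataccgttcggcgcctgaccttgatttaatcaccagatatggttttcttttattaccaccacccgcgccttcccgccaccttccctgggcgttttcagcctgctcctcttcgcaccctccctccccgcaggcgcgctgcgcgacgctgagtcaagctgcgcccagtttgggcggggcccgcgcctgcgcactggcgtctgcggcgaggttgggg
*Arsb*: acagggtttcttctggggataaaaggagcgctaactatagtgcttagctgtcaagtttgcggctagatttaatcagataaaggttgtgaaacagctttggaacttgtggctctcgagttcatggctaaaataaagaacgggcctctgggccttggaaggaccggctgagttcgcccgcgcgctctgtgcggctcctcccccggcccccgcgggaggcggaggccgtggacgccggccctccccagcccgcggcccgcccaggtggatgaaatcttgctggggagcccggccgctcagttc

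The copies in the other 9 genes are shown with 10 bases on each side where the window reaches that far, capitals marking the 7-base core or, where it reads the same on both strands, the 8-base palindrome. The number after each name is the position of the first capital relative to the annotated start:
*Arsa* -17: caactcagtgTCACGTGttgtctgctc
*Cln3* -149: aaccctcaagCACGTGAtggaaggctc
*Cln3* -122: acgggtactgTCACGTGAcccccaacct
*Ctsa* -13: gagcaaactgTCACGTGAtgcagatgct
*Ctsa* +5: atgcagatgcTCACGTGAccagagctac
*Ctsd* -245: tccccCACGTGAcctgtatcca
*Ctsd* -99: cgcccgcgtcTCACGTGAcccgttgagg
*Gla* -228: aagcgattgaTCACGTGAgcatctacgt
*Gla* -195: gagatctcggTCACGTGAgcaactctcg
*Glb1* -49: tgcttctgagTCACGTGgcctacagag
*Mcoln1* -72: gtcgcgcttgTCACGTGttcagttcag
*Mcoln1* -46: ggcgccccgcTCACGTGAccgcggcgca
*Naglu* -74: aaccttcaggTCACGTGgcccgaggtc
*Sgsh* -29: gcctgccgtgCACGTGAccgtggggag

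In all there were 19 copies in the 11 genes, and 7 of them, in *Cln3*, *Ctsa*, *Ctsd*, *Gla* and *Mcoln1*, were palindromes. The 11 genes with the element had a median log2 fold change of -0.13 (8 lower and 3 higher, from -0.82 to 0.12), and the 20 genes with a window and without it a median of -0.09 (14 lower and 6 higher, from -0.45 to 0.68). The ranges of both sets overlapped over most of their length, and no test was made between them.

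**Figure D2:**
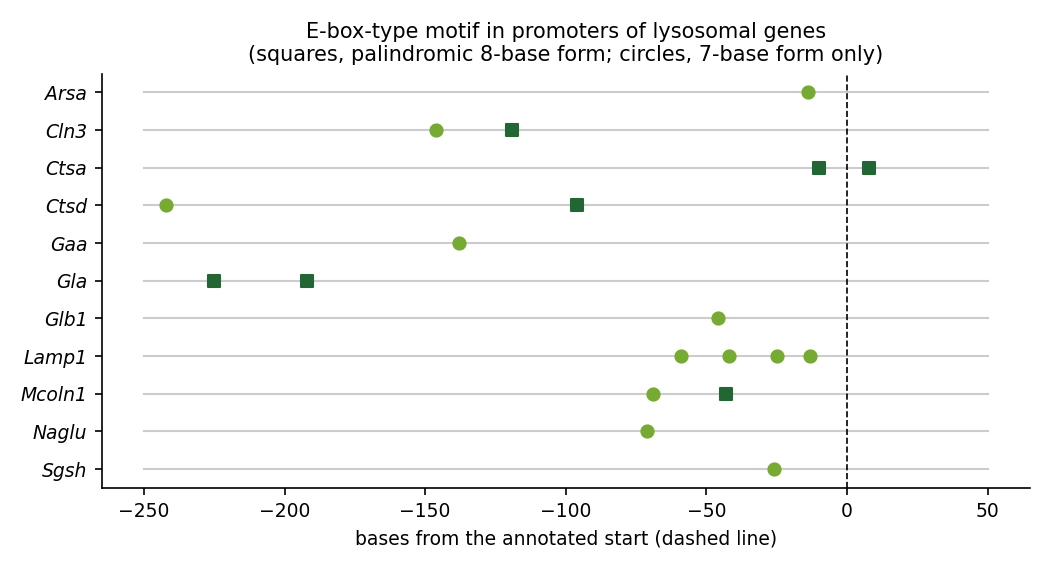
Each grey line is the promoter window of 1 of the 11 genes with the element, the horizontal axis gives bases from the annotated start (dashed line, 250 before to 50 after), and each symbol marks the middle of 1 copy (squares, 8-base palindrome; circles, 7-base core only). *Lamp1* shows 4 circles close to the start, while both squares of *Gla* lie near the far end of its window.

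Proteases come first among the enzymes. *Ctsd*, cathepsin D, the main aspartic protease of the lysosome (Entrez 13033, chr7:142375910-142387827, minus strand), was the most abundant of the 35 per length, at 210 CPM per kilobase of exon over the 6 libraries. It stood at 437, 501 and 489 CPM in control B, C and D and at 507, 447 and 585 CPM in miDrp1KO A, E and F, with both groups overlapping. The means were 475 ± 34.1 and 513 ± 69.0 CPM (SD, n = 3 each), a log2 fold change of 0.11 (95% interval -0.33 to 0.55, edgeR adjusted p = 0.874). The annotation shares 34.4% of its exon bases with Gm49369 on the same strand, so that part of these counts is uncertain.

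*Ctsl*, cathepsin L, a cysteine protease, went the other way without passing the test. It was at 127, 170 and 132 CPM in control B, C and D and at 130, 105 and 91.7 CPM in miDrp1KO A, E and F, a log2 fold change of -0.39 (95% interval -0.82 to 0.05, edgeR adjusted p = 0.510). Only miDrp1KO A overlapped with the controls. *Ctsb*, cathepsin B, the other abundant cysteine protease, was at 205 ± 12.1 CPM in controls and 205 ± 23.1 CPM in miDrp1KO muscle (SD, n = 3), which bounds its log2 fold change between -0.39 and 0.39.

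The remaining proteases were the carboxypeptidases cathepsin A (*Ctsa*) and cathepsin Z (*Ctsz*), the cysteine protease cathepsin F (*Ctsf*) and the tripeptidyl peptidase *Tpp1*. Their log2 fold changes lay between -0.19 (*Ctsz*) and -0.11 (*Ctsf*), and every one of their 95% intervals included 0. Summed, the 7 proteases were at 894 to 1020 CPM in controls and 852 to 1021 CPM in miDrp1KO muscle, without a separation of the groups.

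Of the glycosidases, *Gaa* stood apart. Acid alpha-glucosidase releases glucose from glycogen inside the lysosome, and the gene (Entrez 14387, chr11:119267963-119285458, plus strand) shares no exon with another. It was at 138, 127 and 135 CPM in control B, C and D and at 101, 71.3 and 53.8 CPM in miDrp1KO A, E and F. Every miDrp1KO library lay below every control, and the miDrp1KO mean was 56.5% of the control mean (75.3 ± 23.7 against 133 ± 5.63 CPM, SD, n = 3).

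The log2 fold change of *Gaa* was -0.82 (SE 0.22, 95% interval -1.31 to -0.34), with an unadjusted p of 0.00337 and an adjusted p of 0.362 in edgeR. DESeq2 gave adjusted p-values of 0.0594 with default filtering, 0.0374 with filtering tuned to 0.05 and 0.0445 on all genes with a count. Over the 17 alternatives the fold change stayed between -1.07 and -0.61 and the adjusted p ran from 0.0374 to 0.877. The 10 skeletal muscle fibre markers summed to 229999 to 287687 CPM in controls and 101862 to 213018 CPM in miDrp1KO muscle, and their part in this result was not tested. In bulk tissue, fewer cells of a type and less RNA per cell cannot be told apart.

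*Hexa*, the alpha subunit of beta-hexosaminidase, which cuts gangliosides, was the highest glycosidase per length over the 6 libraries (23.2 CPM per kilobase), though in controls alone it was below *Gaa* (22.5 against 27.9 CPM per kilobase). It was at 36.8, 53.9 and 43.8 CPM in control B, C and D and at 40.1, 42.7 and 60.8 CPM in miDrp1KO A, E and F, with groups that overlapped in part and a log2 fold change of 0.09 (95% interval -0.36 to 0.55). The sialidase *Neu1*, the alpha-galactosidase *Gla*, the beta-galactosidase *Glb1* and the alpha-mannosidase *Man2b1* lay between -0.13 and -0.07, and the beta-mannosidase *Manba* at 0.34 (95% interval -0.17 to 0.85). Summed, the 7 glycosidases were at 227 to 236 CPM in controls and 165 to 190 CPM in miDrp1KO muscle, and without *Gaa* the sums overlapped (89.1 to 109 CPM and 88.9 to 116 CPM).

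Both genes with a higher unadjusted call degrade glycosaminoglycans, the sulfated sugar chains of the extracellular matrix. *Ids*, iduronate 2-sulfatase (Entrez 15931, chrX:70343069-70385834, minus strand), was at 9.38, 14.0 and 11.0 CPM in control B, C and D and at 14.8, 17.9 and 15.8 CPM in miDrp1KO A, E and F. All miDrp1KO libraries lay above all controls, though control C was within 1 CPM of miDrp1KO A. The log2 fold change was 0.50 (SE 0.19, 95% interval 0.09 to 0.92, unadjusted p = 0.021 and adjusted p = 0.393 in edgeR).

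*Arsb*, arylsulfatase B, which acts on dermatan and chondroitin sulfate (Entrez 11881, chr13:93771679-93943016, plus strand), was at 3.50, 3.43 and 2.82 CPM in control B, C and D and at 4.81, 5.88 and 4.70 CPM in miDrp1KO A, E and F. The groups were well apart, at means of 3.25 ± 0.377 and 5.13 ± 0.652 CPM (SD, n = 3). Its log2 fold change of 0.68 (SE 0.22, 95% interval 0.18 to 1.17, unadjusted p = 0.011 and adjusted p = 0.382 in edgeR) was the highest of the 35. It rested on 47 to 240 counts per library, and 39.9% of its exon bases are shared with Gm26527 and Gm47210 on the opposite strand, whose reads cannot be told apart from it unless the counting used strand.

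The heparan sulfate enzymes *Sgsh* and *Naglu*, the iduronidase *Idua* and the beta-glucuronidase *Gusb* completed this role. *Sgsh* (Entrez 27029, chr11:119343489-119355510, minus strand) was at 4.59, 4.37 and 4.25 CPM in control B, C and D and at 4.08, 3.21 and 4.18 CPM in miDrp1KO A, E and F. The groups did not overlap, yet control D and miDrp1KO F were almost level, and the log2 fold change was -0.21 (95% interval -0.69 to 0.27, edgeR adjusted p = 0.762). *Idua* was at -0.24, *Naglu* at -0.05 and *Gusb* at 0.21 on the log2 scale, each with an interval that included 0.

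Summed, the 6 glycosaminoglycan genes were at 36.6 to 40.4 CPM in controls and at 41.4 to 46.3 CPM in miDrp1KO muscle. This was the only role whose sum was above the controls in every miDrp1KO library, with a median log2 fold change of 0.08 and 3 of the 6 below 0. Without *Ids* the sums overlapped, at 25.6 to 27.2 CPM in controls and 25.5 to 28.4 CPM in miDrp1KO muscle. Markers of fibroblasts, cells that make and turn over such matrix, had higher fitted levels in 6 of 6 genes (median log2 fold change 0.27), none of them at an unadjusted edgeR p under 0.05 or an adjusted p under 0.05 in DESeq2 or edgeR. Their sums overlapped (1218 to 1714 CPM in controls, 1347 to 2291 CPM in miDrp1KO muscle), and their part in the glycosaminoglycan genes' level was not tested.

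**Figure D3:**
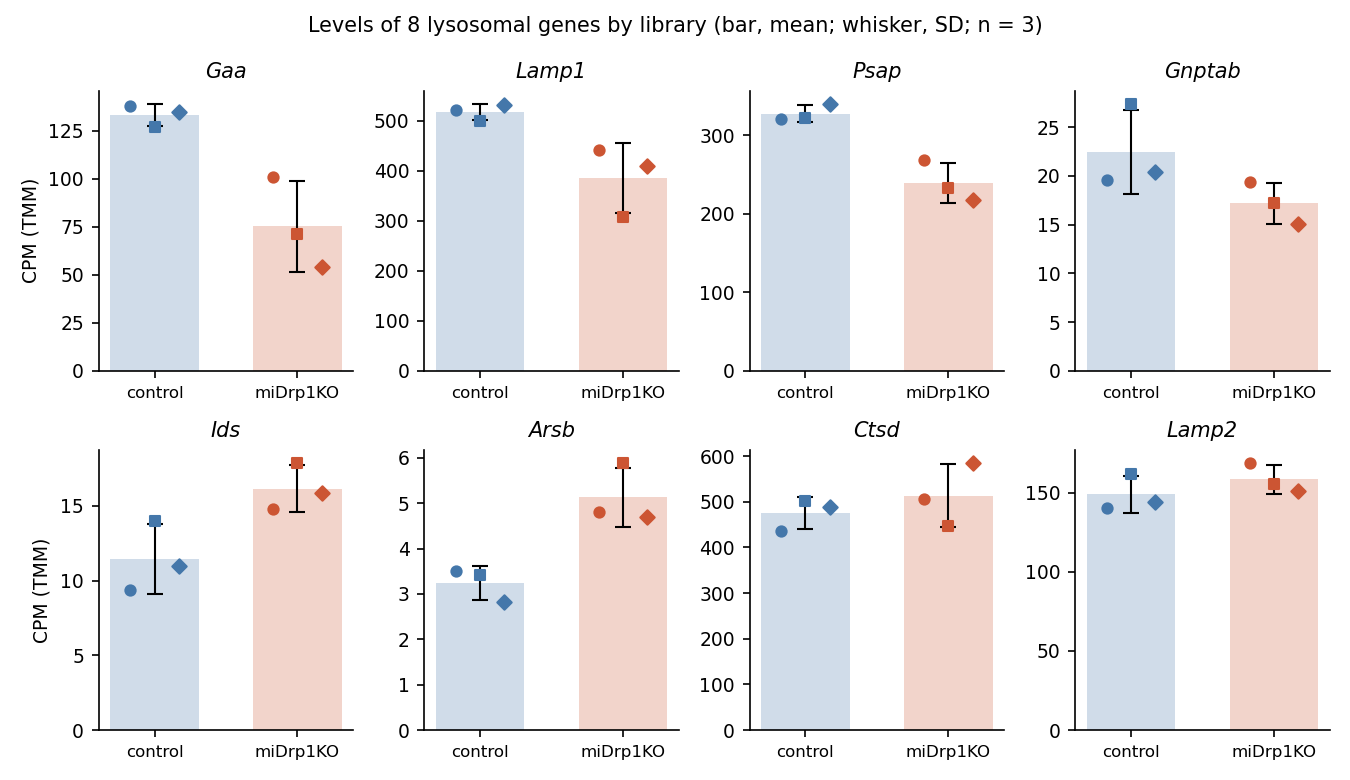
CPM of 8 lysosomal genes in each library, controls left and miDrp1KO right, on vertical axes that start at 0; points are libraries, bars the mean and whiskers the SD (n = 3 each). The miDrp1KO points of *Gaa*, *Psap* and *Lamp1* lie under all control points and those of *Ids* and *Arsb* above them, while those of *Ctsd* and *Lamp2* mix with the controls.

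In lipid breakdown the largest difference was in *Psap*. Prosaposin is cut into the saposins, the activator proteins that lift sphingolipids to their hydrolases, and the gene (Entrez 19156, chr10:60277628-60302600, plus strand) was the highest of its role per length (103 CPM per kilobase). It was at 320, 322 and 340 CPM in control B, C and D and at 268, 232 and 217 CPM in miDrp1KO A, E and F. No miDrp1KO library reached the lowest control, and the miDrp1KO mean was 73.1% of the control mean (239 ± 25.9 against 327 ± 10.8 CPM, SD, n = 3).

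The log2 fold change of *Psap* was -0.45 (SE 0.18, 95% interval -0.85 to -0.05, unadjusted p = 0.0296 and adjusted p = 0.416 in edgeR), and between -0.52 and -0.37 in the alternatives. The acid sphingomyelinase *Smpd1* was at -0.23 (95% interval -0.63 to 0.17). The acid ceramidase *Asah1*, the arylsulfatase A gene *Arsa*, the acid lipase *Lipa* and the thioesterase *Ppt1* lay between -0.05 and 0.02, with groups that overlapped. *Npc1*, which exports cholesterol through the lysosomal membrane, was at 70.5, 68.9 and 83.1 CPM in control B, C and D and at 69.0, 64.3 and 30.4 CPM in miDrp1KO A, E and F.

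The difference in *Npc1* lay largely in miDrp1KO F, and its log2 fold change of -0.44 had a wide interval (-1.06 to 0.18, edgeR adjusted p = 0.583). Its luminal partner *Npc2*, which hands cholesterol over to it, was at 20.8 ± 4.52 CPM in controls and 20.7 ± 1.47 CPM in miDrp1KO muscle (SD, n = 3), with a log2 fold change between -0.40 and 0.39 at 95%.

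Among membrane proteins, *Lamp1* and *Lamp2*, the paired glycoproteins that coat the inner face of the lysosomal membrane, gave different values. *Lamp1* (Entrez 16783, chr8:13159161-13175338, plus strand) was at 522, 499 and 531 CPM in control B, C and D and at 441, 307 and 408 CPM in miDrp1KO A, E and F. All miDrp1KO libraries were below all controls, at a mean of 386 ± 69.8 against 517 ± 16.4 CPM (SD, n = 3), or 74.6% of the control mean. The log2 fold change was -0.42 (SE 0.21, 95% interval -0.88 to 0.03, unadjusted p = 0.064 and adjusted p = 0.486 in edgeR). DESeq2 gave *Lamp1* an unadjusted p of 0.033 and an adjusted p of 0.308.

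*Lamp2* (Entrez 16784), which is also needed for autophagosomes to mature, was at 140, 162 and 144 CPM in control B, C and D and at 169, 155 and 151 CPM in miDrp1KO A, E and F. Its groups overlapped, with a log2 fold change of 0.09 (95% interval -0.28 to 0.46, edgeR adjusted p = 0.878). The difference between both genes was not tested. *Scarb2*, a membrane protein that also serves as a sorting receptor, was at 140 ± 8.82 CPM in controls and 115 ± 16.3 CPM in miDrp1KO muscle (SD, n = 3), a log2 fold change of -0.28 (95% interval -0.67 to 0.10). The calcium channel *Mcoln1* was at -0.14 and *Cln3*, the least abundant of the 35 per length over the 6 libraries (0.649 CPM per kilobase), at 0.12, both with intervals that included 0. In controls alone *Arsb* was lower than *Cln3* (0.538 against 0.626 CPM per kilobase).

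The sorting genes were split. *Gnptab*, which encodes subunits of the transferase that starts the mannose 6-phosphate tag (Entrez 432486, chr10:88379134-88447324, plus strand), was at 19.6, 27.4 and 20.4 CPM in control B, C and D and at 19.3, 17.2 and 15.1 CPM in miDrp1KO A, E and F. The groups did not overlap, but miDrp1KO A was within 1 CPM of control B, and the log2 fold change was -0.38 (95% interval -0.78 to 0.02, edgeR adjusted p = 0.472). *M6pr*, the cation-dependent mannose 6-phosphate receptor, was at 23.8, 31.0 and 28.6 CPM in control B, C and D and at 27.4, 30.1 and 30.1 CPM in miDrp1KO A, E and F. Its groups overlapped, at a log2 fold change of 0.07 (95% interval -0.27 to 0.42).

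**Figure D4:**
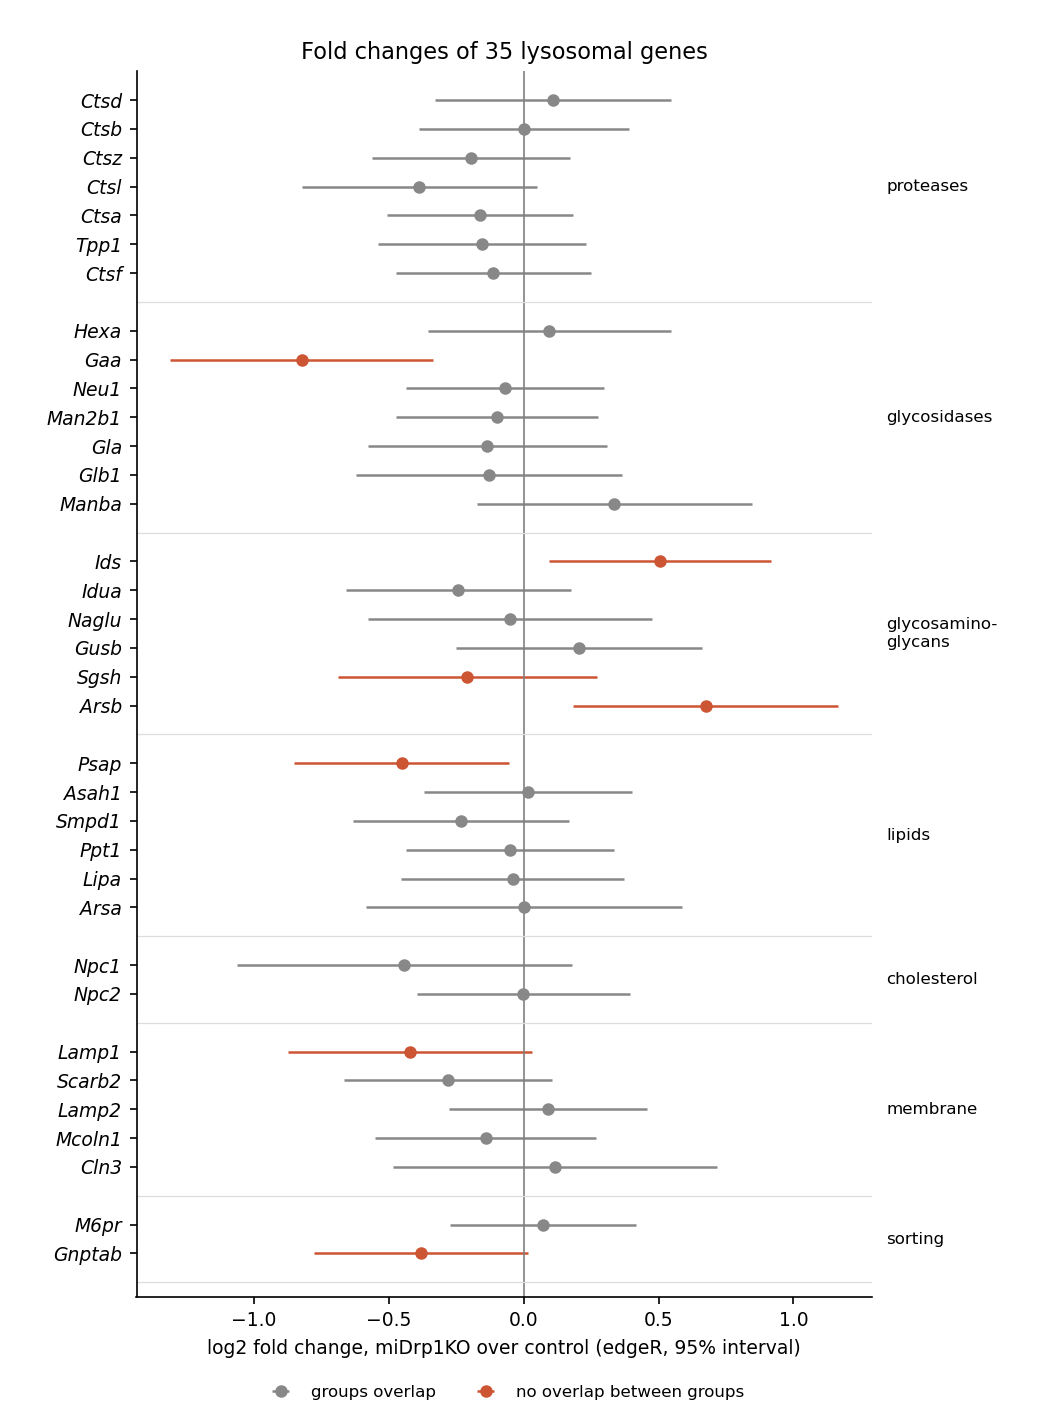
Log2 fold change of each of the 35 lysosomal genes, miDrp1KO over control, from edgeR on the horizontal axis, with 95% intervals as whiskers; red points are the 7 genes whose groups did not overlap. The intervals of *Gaa* and *Psap* end below 0 and those of *Ids* and *Arsb* begin above it, and the other 31 include 0.

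Level and difference were set side by side over the 35 genes. Per kilobase of exon and over the 6 libraries, levels spanned from 0.649 CPM (*Cln3*) to 210 CPM (*Ctsd*), a 324-fold span. Log2 fold change against log2 level gave Pearson's r of -0.41 and Spearman's rho of -0.35 across these 35 genes, which share libraries, scaling and a noise that grows as counts fall, and are not independent replicates. The abundant *Lamp1* and *Psap* lay low and the scarce *Arsb* and *Manba* high, yet *Ctsd*, the most abundant, did not follow.

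**Figure D5:**
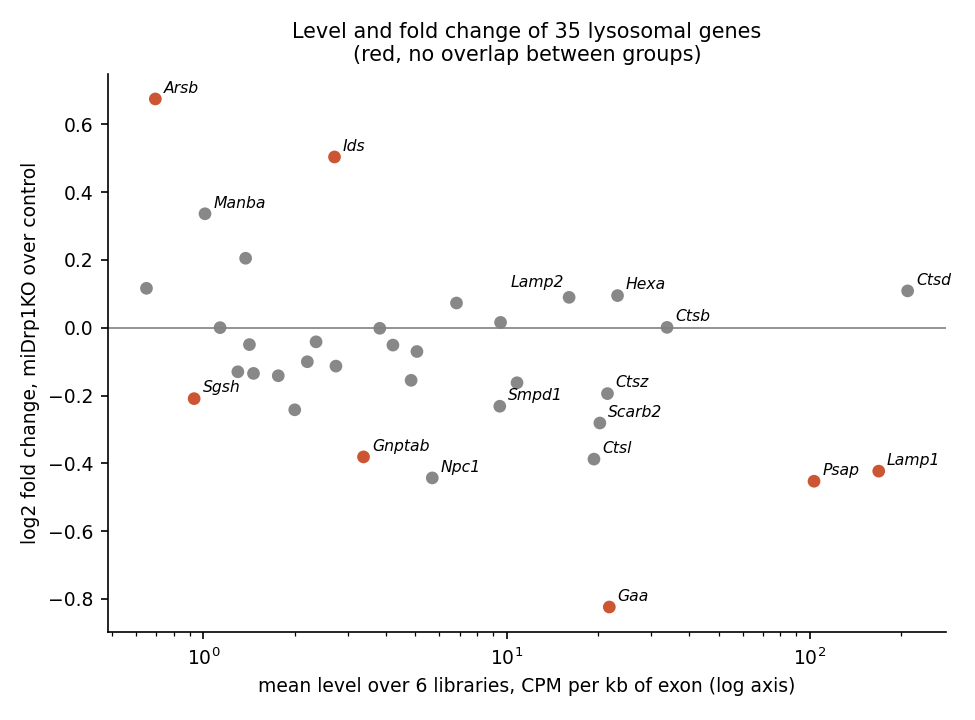
Each point is 1 of the 35 lysosomal genes, with the mean level over the 6 libraries in CPM per kilobase of exon on a log axis across and the log2 fold change, miDrp1KO over control, upward; red points are the 7 genes whose groups did not overlap. *Gaa* is lowest at -0.82 with a level of 21.8 CPM per kilobase, and *Ctsd*, at 210 CPM per kilobase, lies just above 0.

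Genes that work around these 35 were listed in 5 groups of 90 genes in all, every one of them tested. None was called by edgeR, nor any of the 72 given an adjusted p by DESeq2 with default filtering, while 10 were lower and 0 higher at an unadjusted edgeR p under 0.05, against 6.22% and 4.68% of all tested genes. Lower fitted values were found for 61 of the 90, with a median log2 fold change of -0.10, the same as for the 35. The groups did not overlap for 14 lower and 2 higher genes, against 10.3% and 7.67% of all tested genes.

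Delivery and fusion genes had the lowest median (-0.20), with 15 of 18 below 0 and 4 of 18 lower at an unadjusted p under 0.05, against 6.22% of all tested genes. Of these, *Igf2r*, the large mannose 6-phosphate receptor that carries most hydrolases, was at 182, 129 and 144 CPM in control B, C and D and at 117, 106 and 60.1 CPM in miDrp1KO A, E and F (log2 fold change -0.68, SE 0.25, edgeR adjusted p = 0.393). Its groups did not overlap, unlike those of the smaller receptor *M6pr*. *Vps33a* (-0.38) and *Vps41* (-0.46), subunits of the tethering complex HOPS that lets lysosomes fuse, were also lower at an unadjusted p under 0.05 without overlap.

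Of the 16 V-ATPase genes, the proton pump that acidifies the lumen, 11 were below 0, and *Atp6v0a2* was at 17.6 ± 0.502 CPM in miDrp1KO muscle against 27.1 ± 3.75 CPM in controls (SD, n = 3; log2 fold change -0.62, edgeR adjusted p = 0.362). Among 22 further hydrolases and activators 9 were below and 13 above 0, with a median log2 fold change of 0.04. Of 15 further membrane proteins 13 were below 0, with a median of -0.13.

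The control of the set itself was listed as 19 genes of the TFEB family and of mTORC1, the kinase that holds TFEB in the cytosol, of which 13 were below 0. *Mtor* was at 52.6, 42.9 and 48.0 CPM in control B, C and D and at 38.0, 33.3 and 22.9 CPM in miDrp1KO A, E and F, without overlap (log2 fold change -0.61, SE 0.20, edgeR adjusted p = 0.382). *Tfeb* was at 30.4 ± 3.62 CPM in controls and 26.3 ± 6.95 CPM in miDrp1KO muscle, *Tfe3* at 6.60 ± 0.551 and 6.31 ± 0.0307 CPM and *Mitf* at 39.3 ± 2.73 and 36.9 ± 3.53 CPM (SD, n = 3 each). Transcript levels of these factors do not report whether the proteins are in the nucleus, which was not measured in these libraries.

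Cells other than fibres also carry lysosomes, above all macrophages. Of 15 macrophage markers 10 were above 0, 6 at an unadjusted edgeR p under 0.05, and for 3 (*C1qa*, *Ptprc* and *Tyrobp*) all miDrp1KO libraries exceeded all controls, against 4.68% and 7.67% of all tested genes. The summed level was 193 to 345 CPM in controls and 283 to 319 CPM in miDrp1KO muscle, and *Adgre1*, which encodes F4/80, was at 7.20 ± 3.69 and 6.82 ± 0.703 CPM (SD, n = 3). Skeletal muscle fibre markers had lower fitted levels, with 9 of 10 below 0 and a median log2 fold change of -0.65. Of these 10, 2 were lower at an unadjusted edgeR p under 0.05 (6.22% of all tested genes in this direction) and 3 were lower without overlap (10.3%). *Myh4*, the fast myosin heavy chain IIB, had a log2 fold change of -1.29 in both edgeR (adjusted p = 0.392) and DESeq2 (adjusted p = 0.0437), of which DESeq2 called it.

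Adipocyte markers had the lowest median of all marker lists, -1.12, with 6 of 6 below 0, 3 of them at an unadjusted edgeR p under 0.05 (6.22% of all tested genes in this direction) and 2 without overlap (10.3%). *Adipoq*, which encodes adiponectin, had a log2 fold change of -1.28 in edgeR (adjusted p = 0.382) and of -1.26 in DESeq2 (adjusted p = 0.0327), of which DESeq2 called it. The summed adipocyte markers were at 186 to 395 CPM in controls and 70.4 to 181 CPM in miDrp1KO muscle, without overlap. Schwann cell markers were above 0 in 5 of 5 (median 0.44, none called by edgeR and 0 at an unadjusted edgeR p under 0.05), and their sums overlapped. Endothelial markers (4 of 6 below 0, median -0.16) and blood markers (4 of 6 tested above 0, median 0.12) had sums that overlapped.

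No defining macrophage marker was at 0 in a library, and the part of macrophages, adipocytes and the other cell types in the levels of the 35 genes was not tested.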

How the data were processed

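RNA-seq of quadriceps was available for 3 control and 3 miDrp1KO mice, 1 library each, grouped by the labelled genotype. The authors deposited raw counts per gene, made according to the methods from stranded, ribosome-depleted total RNA that was sequenced in 2 pools. Rsubread served for both alignment to GRCm38 and counting, after read quality had been examined in FastQC. Which library was in which pool, and the strand setting of the counting, were not given in the sources used here, so that counts of genes with overlapping neighbours are uncertain (15 of the 35 genes share over 1% of their exon bases with another gene).

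The lysosomal genes and all gene lists were chosen with earlier results of these data known. Counts were fitted with edgeR 4.0.16 in R 4.3.3 (TMM scaling, filterByExpr, robust quasi-likelihood test, Benjamini-Hochberg adjustment over 16483 genes, threshold 0.05). CPM used TMM library sizes, levels per kilobase used exon lengths of the mouse GENCODE annotation, and standard errors and 95% intervals came from the same fit. Each library was given for genes with an unadjusted p under 0.05, for genes whose groups did not overlap, for the highest gene per length of each role over the 6 libraries and for *Lamp1*, *Lamp2*, *Gaa*, *Ctsd*, *Ctsl* and *Psap*. Genes of the other lists were named where both the unadjusted p was under 0.05 and the groups did not overlap, apart from some that are not reported here, and TFEB family genes and *Adgre1* were named as well after their values were seen. Alternatives were DESeq2 1.42.0, limma 3.58.1 (voom), other scalings and filters, a length and GC correction and each library left out. The fitting code was tested on simulated data. Single values were compared by two-sided exact permutation tests on log2(CPM + 1). No sample was left out. The p-values measure the spread between these 6 libraries, which were taken as separate mice.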

Additional observations from a re-analysis of the deposited data

How the results depend on the processing

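Over 17 alternatives, 21 of the 35 lysosomal genes kept 1 direction, and 14 with fold changes near 0 reversed in at least 1, never past the threshold. The count of members called was 1 instead of 0 with DESeq2 tuned to 0.05 and with DESeq2 on all genes with a count, *Gaa* in both, and *Dnm1l* (log2 fold change -0.90 in DESeq2 with default and tuned filtering, -0.93 on all genes with a count) passed the threshold in all 3 DESeq2 fits. The members' median was -0.0086 with upper quartile scaling, which moved the median of all genes to 0.11, and -0.034 with the length and GC correction; the cause was not tested. DESeq2 called 55 genes in all with default filtering, 94 when tuned and 82 on all genes with a count, and edgeR 2. *Npc2* reversed to 0.013 in DESeq2 (default and tuned), 0.011 with RLE scaling, 0.031 with limma voom, 0.093 with upper quartile scaling, 0.0073 without a filter, 0.045 with at least 10 counts in every library, 0.041 without ribosomal RNA genes and Lars2, 0.090 with the length and GC correction and 0.015 with the ribosomal share as a covariate, which was added after the data were seen. *Ctsb* reversed to -0.0069 with limma voom, -0.058 with that covariate and -0.015 with DESeq2 on all genes with a count, and *Arsa* to -0.017 with the last. Upper quartile scaling reversed *Neu1* (0.023), *Naglu* (0.039), *Lipa* (0.048) and *Ppt1* (0.038), and *Lipa* was also at 0.0023 with at least 10 counts in every library and 0.090 with the covariate.

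Leaving out each library in turn, the count of members with an unadjusted p under 0.05 ran from 1 (without control D or miDrp1KO E) to 9 (without miDrp1KO A), that of members without overlap from 9 to 13 (without control C), and the members' median from -0.10 to -0.051, the highest without miDrp1KO F. Leaving out 1 library in turn, the fold change ran, for the 14 genes that reversed in some such fit, as follows on the log2 scale: *Lipa* -0.23 to 0.12, *Ppt1* -0.18 to 0.084, *Npc2* -0.078 to 0.17, *Hexa* -0.093 to 0.23, *Glb1* -0.21 to 0.0018, *Arsa* -0.29 to 0.23, *Asah1* -0.062 to 0.14, *Cln3* -0.057 to 0.36, *M6pr* -0.0075 to 0.14, *Man2b1* -0.16 to 0.031, *Naglu* -0.12 to 0.091, *Ctsb* -0.076 to 0.070, *Neu1* -0.18 to 0.017 and *Mcoln1* -0.23 to 0.0025.

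No paired analysis was possible because the labels give no pairing between control and miDrp1KO mice. With 3 libraries a group and a biological coefficient of variation of 0.252, differences of the size of *Lamp1* were within the interval that includes 0, and the counts behind *Arsb* went down to 47.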
